A study of Homo sapiens with 4 samples.

Results

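Lysine acetylation, which the study examined on METTL3, the catalytic subunit of the m6A methyltransferase, is added by acetyltransferases and removed by deacetylases, and the mRNAs of 10 enzymes of these families are described here by their symbols in the table of 28198 genes. They are 6 sirtuins (SIRT1, SIRT2, SIRT3, SIRT5, SIRT6 and SIRT7) and 4 acetyltransferases (EP300, CREBBP, KAT2A and KAT2B), and all 10 were in the table. The cells were MDA-MB-231, a human breast cancer cell line, depleted of METTL3 and reconstituted by lentivirus with either wild-type METTL3 (METTL3 WT) or METTL3 K177Q, in which a glutamine replaces a lysine to mimic its acetylated state. Both cultures received cycloheximide, which holds ribosomes on mRNA, at 100 µg/mL for 5 min, and their lysates were spread on a sucrose gradient. Fractions were pooled into a sub-polysome sample (ribosomal subunits and single ribosomes) and a polysome sample (mRNAs carrying several ribosomes), and poly(A)-selected RNA of each was sequenced. The 4 libraries analysed here, all replicate 2, are 1 per condition, so no value has a replicate error, no difference between genotypes was tested and no p-value is given. The same table holds 4 further columns headed as replicate 1 of these conditions, which match no listed sample and were not analysed here. Neither the labels nor the methods say whether the cultures were clones or pools, or which promoter drove the METTL3 transgene.

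Sirtuins are NAD+-dependent enzymes that take acetyl or longer acyl groups off lysines. SIRT6 and SIRT7 are mostly nuclear, SIRT2 is mostly cytosolic, and SIRT3 and SIRT5 are mitochondrial. SIRT1 is often described as nuclear, but the study reports it mainly in the cytosol of its tumor cell lines. EP300 and CREBBP encode p300 and CBP, large paralogous coactivators with broad lysine acetyltransferase activity, and KAT2A and KAT2B encode GCN5 and PCAF, paralogous acetyltransferases that serve in the SAGA and ATAC coactivator complexes. The study assigns METTL3 acetylation in cells to p300 and its removal to SIRT1, and tested the other sirtuins and CBP beside them. Overexpressed CBP also raised METTL3 acetylation, but CBP knockdown did not lower it. The study's acetyltransferase constructs included GCN5 and PCAF, and its screen names only p300 and CBP as raising METTL3 acetylation. SIRT2 and SIRT3 also deacetylated METTL3 in vitro and when overexpressed. However, METTL3 bound endogenous SIRT1 but not SIRT2 or SIRT3, and only SIRT1 knockdown strongly raised its acetylation.

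The METTL3 lysine and catalytic residues of p300, CBP, SIRT1, SIRT2 and SIRT3 are shown as coding sequence, 5′ to 3′, from the canonical transcripts of GENCODE 44 on GRCh38, which also gave the gene positions below. For METTL3 the capitals mark the codon of the lysine that the genotypes differ in, at chr14:21503365-21503367 in exon 3 on the minus strand. The reference codon is given, since the codon used in the K177Q construct was not analysed here.
METTL3: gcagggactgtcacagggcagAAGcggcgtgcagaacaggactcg
For SIRT1, SIRT2 and SIRT3 the capitals mark the catalytic histidine codon, in exon 5 of SIRT1 at chr10:67906934-67906936 on the plus strand, in exon 9 of SIRT2 at chr19:38883697-38883699 on the minus strand and in exon 4 of SIRT3 at chr11:230515-230517 on the minus strand. The SIRT2 and SIRT3 codons were found by aligning the translated sequences with SIRT1.
SIRT1: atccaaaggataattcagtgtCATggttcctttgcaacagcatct
SIRT2: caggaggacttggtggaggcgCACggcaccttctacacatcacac
SIRT3: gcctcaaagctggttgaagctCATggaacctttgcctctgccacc
For EP300 and CREBBP the capitals mark the serine, tyrosine and aspartate codons whose substitution inactivates p300, and the aligned codons of CREBBP, in exon 26 of each gene, at chr22:41169516-41169527 on the plus strand and chr16:3738648-3738659 on the minus strand.
EP300: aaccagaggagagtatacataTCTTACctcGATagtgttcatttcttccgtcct
CREBBP: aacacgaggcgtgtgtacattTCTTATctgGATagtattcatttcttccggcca
These runs of p300 and CBP matched at 43 of 54 bases and at 16 of 18 encoded residues. Over the positions that could be aligned, 66.1% of 2314 residues were identical between p300 and CBP, and 40.8% of 348 between SIRT1 and SIRT2. SIRT1 has 747 residues and SIRT2 389, so this second value leaves out much of SIRT1.

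Levels are in FPKM, fragment counts scaled to transcript length and to library size, so that genes can be compared per length but a change common to every mRNA is lost. The values summed to between 767949 and 1037594 per library. The lowest cluster of values, if it stands for 1 fragment, gives between 24900000 and 26600000 fragments per library, and standard errors given below come from this approximate depth and cover counting error only. At this depth the members had between 233 fragments (EP300) and 1842 fragments (SIRT2) in a library. METTL3 itself had 9.39 (sub-polysome) and 38.7 (polysome) FPKM in METTL3 WT cells, against 5.07 and 29.5 FPKM in METTL3 K177Q cells. The table does not separate the METTL3 transgene from the endogenous gene. The line's mesenchymal markers VIM, CD44, AXL and CAV1 had at least 88.6 FPKM in every library, and ESR1, PGR and CDH1 had at most 0.632 FPKM.

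Among these 6 sirtuins, SIRT2 and SIRT6 mRNAs were the most abundant in 3 of the 4 libraries and SIRT1 and SIRT5 mRNAs the least abundant in all 4. SIRT2, a tubulin and histone deacetylase on chromosome 19 from 38878560 to 38899618, had 34.2 (sub-polysome) and 37.5 (polysome) FPKM in METTL3 WT cells, and 34.0 and 33.8 FPKM in METTL3 K177Q cells. SIRT6, a chromatin deacetylase and deacylase on chromosome 19 from 4174109 to 4182563, had 34.5 and 30.2 FPKM in METTL3 WT cells, and 34.0 and 25.1 FPKM in METTL3 K177Q cells. The SIRT6 to SIRT2 ratio of FPKM was 1.01 in the METTL3 WT and 0.998 in the METTL3 K177Q sub-polysome library, so their order there was within counting error, while in the polysome libraries SIRT6 was lower at 0.805 and 0.743 times SIRT2. Together they made up between 56.4% and 71.4% of the FPKM of the 6 sirtuins. SIRT7, a nucleolar deacetylase linked to ribosomal RNA synthesis, on chromosome 17 from 81911939 to 81918176, had 15.9 (sub-polysome) and 26.8 (polysome) FPKM in METTL3 WT cells, and 14.5 and 27.2 FPKM in METTL3 K177Q cells. SIRT7 was thus higher in both polysome libraries than in either sub-polysome library, and in METTL3 K177Q polysomes it stood above SIRT6.

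SIRT3, the main mitochondrial deacetylase, on chromosome 11 from 215030 to 236342, had 6.20 (sub-polysome) and 10.5 (polysome) FPKM in METTL3 WT cells, and 6.69 and 10.4 FPKM in METTL3 K177Q cells. RIC8A overlaps it on the opposite strand at a mean of 60.0 FPKM. The study names a directional library kit, but the counting options for strand are not given in the sources used here. SIRT5, a mitochondrial desuccinylase on chromosome 6 from 13574601 to 13615158, had 2.32 and 4.31 FPKM in METTL3 WT cells, and 2.41 and 4.27 FPKM in METTL3 K177Q cells. For both of these mRNAs the polysome libraries lay above the sub-polysome libraries, and the genotypes differed by at most 0.11 on the log2 scale within a fraction.

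SIRT1, the METTL3 deacetylase of the study, on chromosome 10 from 67884656 to 67918390, had the largest sub-polysome gap between genotypes among the 6 sirtuins. It had 4.92 (sub-polysome) and 3.64 (polysome) FPKM in METTL3 WT cells, and 3.59 and 3.68 FPKM in METTL3 K177Q cells. The METTL3 WT sub-polysome library was the high value, and the other libraries lay between 3.59 and 3.68 FPKM. SIRT1 made up between 3.22% and 5.02% of the summed sirtuin FPKM.

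The acetyltransferases spanned a wider range of levels. EP300, on chromosome 22 from 41092592 to 41180077, had 1.17 (sub-polysome) and 1.18 (polysome) FPKM in METTL3 WT cells, and 1.07 and 1.32 FPKM in METTL3 K177Q cells. EP300-AS1 overlaps EP300 on the opposite strand at a mean of 0.380 FPKM. CREBBP, on chromosome 16 from 3725054 to 3880713, had 1.14 and 1.40 FPKM in METTL3 WT cells, and 0.887 and 1.45 FPKM in METTL3 K177Q cells. EP300 and CREBBP were the lowest of the 10 mRNAs in every library, and the log2 ratio of CREBBP to EP300 lay between -0.27 (SE 0.13) and 0.25 (SE 0.11), so neither paralog was the higher in every library. SIRT1 mRNA was 4.19-fold, 3.10-fold, 3.36-fold and 2.78-fold the level of EP300 mRNA in the METTL3 WT sub-polysome, METTL3 WT polysome, METTL3 K177Q sub-polysome and METTL3 K177Q polysome libraries.

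KAT2A, on chromosome 17 from 42113111 to 42121367, had 12.8 (sub-polysome) and 21.8 (polysome) FPKM in METTL3 WT cells, and 10.6 and 19.5 FPKM in METTL3 K177Q cells. Its paralog KAT2B, on chromosome 3 from 20040446 to 20154404, had 15.7 and 10.2 FPKM in METTL3 WT cells, but 4.39 and 3.37 FPKM in METTL3 K177Q cells. KAT2B was the only member whose METTL3 WT and METTL3 K177Q values were apart by more than 1.5-fold in a fraction, and it was so in both. The ratio of KAT2A to KAT2B FPKM, which no scaling of the libraries can change, was 0.817 (sub-polysome) and 2.13 (polysome) with METTL3 WT, and 2.40 and 5.80 with METTL3 K177Q. The summed FPKM of this pair was 28.4 and 32.0 in METTL3 WT cells, and 14.9 and 22.9 in METTL3 K177Q cells.

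**Figure D1:**
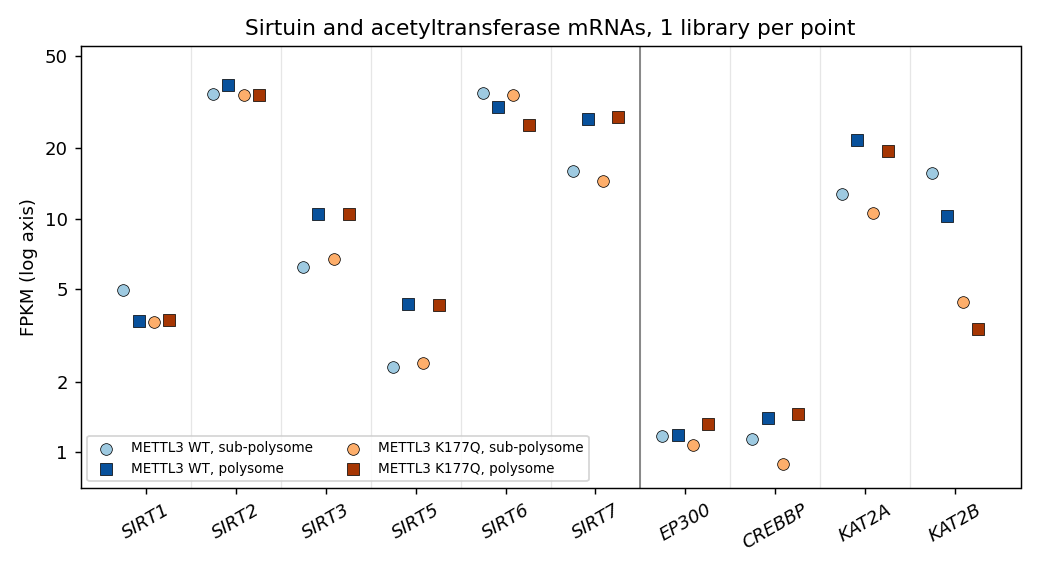
FPKM (log axis) of the 10 mRNAs in the 4 libraries, with circles for sub-polysome and squares for polysome libraries, blue for METTL3 WT and orange to brown for METTL3 K177Q; the vertical line parts sirtuins from acetyltransferases. KAT2B stands out, at 15.7 and 10.2 FPKM in METTL3 WT but 4.39 and 3.37 FPKM in METTL3 K177Q cells, while EP300 and CREBBP lie near 1 FPKM in every library.

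The first question for these mRNAs was how they were shared between the fractions of a genotype. The measure was the polysome ratio, the log2 of polysome over sub-polysome FPKM after adding 0.1 to each, with 1.5-fold as the limit for counting. It was compared with the 10905 genes averaging 1 FPKM or more, a minimum that all 10 members passed. In METTL3 WT cells 4 members were at least 1.5-fold higher in polysomes, against 28.1% of all genes, and 1 was at least 1.5-fold lower, against 19.1% of all genes. The median of the members was 0.20 and that of all genes 0.14. SIRT5 (log2 0.87, SE 0.11), KAT2A (0.76, SE 0.056), SIRT3 (0.75, SE 0.084) and SIRT7 (0.74, SE 0.067) formed the higher group, each above at least 78.2% of all genes. KAT2B was at the other end with -0.61 (SE 0.054), above 18.4% of all genes and within 1 counting standard error of the 1.5-fold threshold. SIRT1 (-0.43, SE 0.096) and SIRT6 (-0.19, SE 0.055) were also below 0, and SIRT2 (0.13, SE 0.049), EP300 (0.0015, SE 0.12) and CREBBP (0.28, SE 0.11) lay near the median of all genes.

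In METTL3 K177Q cells 5 members were at least 1.5-fold higher in polysomes, against 30.2% of all genes, and 0 were at least 1.5-fold lower, against 21.3% of all genes. The members' median was 0.46 and that of all genes 0.16. The higher group held the same 4 mRNAs, SIRT7 (0.90, SE 0.071), KAT2A (0.88, SE 0.062), SIRT5 (0.80, SE 0.11) and SIRT3 (0.63, SE 0.084), and also CREBBP (0.65, SE 0.12), of which SIRT3 and CREBBP were within 1 counting standard error of the threshold. SIRT6 had the lowest value (-0.43, SE 0.059), followed by KAT2B (-0.37, SE 0.098), SIRT2 (-0.01, SE 0.051), SIRT1 (0.03, SE 0.10) and EP300 (0.28, SE 0.13). The distance between the paralogs KAT2A and KAT2B does not depend on the scaling of the libraries. It was 1.38 (SE 0.078) on the log2 scale in METTL3 WT and 1.27 (SE 0.12) in METTL3 K177Q cells, so KAT2A mRNA was 2.61-fold and 2.41-fold more polysome-weighted than KAT2B mRNA. SIRT3 was 2.29-fold and SIRT5 2.52-fold more polysome-weighted than SIRT1 in METTL3 WT cells, against 1.52-fold and 1.73-fold in METTL3 K177Q cells.

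**Figure D2:**
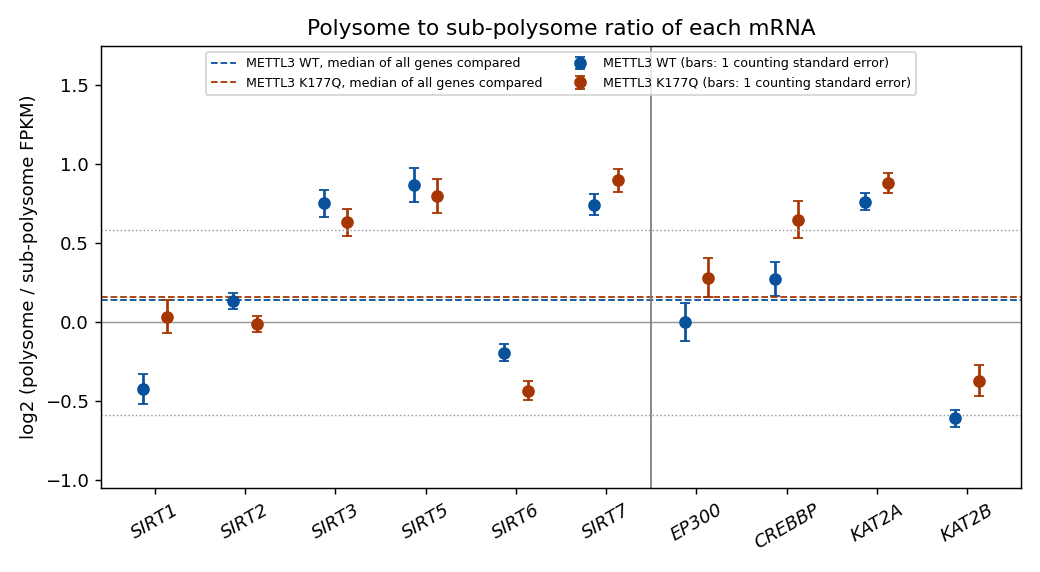
Log2 of polysome over sub-polysome FPKM for each mRNA in METTL3 WT (blue) and METTL3 K177Q (brown) cells, with bars of 1 counting standard error, dashed lines at the medians of all genes compared (0.14 and 0.16) and dotted lines at 1.5-fold. SIRT3, SIRT5, SIRT7 and KAT2A lie above the upper dotted line in both genotypes, and SIRT1 lies at -0.43 in METTL3 WT and 0.03 in METTL3 K177Q cells.

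The members differ in mRNA length, and the polysome ratio of all genes moved with coding length. In METTL3 WT cells the median ratio was -0.44 in the shortest decile of coding sequences and 0.39 in the longest, and in METTL3 K177Q cells it was -0.68 and 0.64. EP300 and CREBBP, with coding sequences of 7245 and 7329 bases, were in the longest decile, and against its median EP300 was -0.39 in METTL3 WT and -0.36 in METTL3 K177Q cells, and CREBBP -0.12 and 0.01. Of the 4 mRNAs that were polysome-high in both genotypes, none stayed past 1.5-fold in both once the median of its decile was subtracted. SIRT5, with the shortest coding sequence of the members at 933 bases, was then at 0.62 in METTL3 WT and 0.58 in METTL3 K177Q cells, SIRT7 at 0.48 and 0.67, SIRT3 at 0.49 and 0.40 and KAT2A at 0.46 and 0.40, so that SIRT5 passed 1.5-fold in METTL3 WT and SIRT7 in METTL3 K177Q cells. At the other end KAT2B (-0.92 and -0.85) was past it in both genotypes, SIRT1 (-0.69 and -0.39) in METTL3 WT and SIRT6 (-0.44 and -0.65) in METTL3 K177Q cells. The share of all genes past 1.5-fold after this subtraction is not given here, so passing it does not set these mRNAs apart. The members' median turned from 0.20 to -0.12 in METTL3 WT and from 0.46 to -0.12 in METTL3 K177Q cells. SIRT5 carried 4 upstream ATG triplets in a leader of 338 bases, CREBBP 2, EP300 and KAT2A 1 each, and the other members 0; 37.6% of all genes compared had at least 1. The letters GGACT, on the transcript strand, which form the most common core of the m6A motif, occurred 2.15 times per kilobase in SIRT2 mRNA and 0 times in SIRT7 mRNA. The other members had between 0.625 and 1.39 per kilobase, the median of all genes was 0.931, and 90.4% of transcripts, of whatever length, held these letters at least once.

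The next question was how METTL3 K177Q cells differed from METTL3 WT cells within a fraction. Between the polysome libraries, 0 members were higher by 1.5-fold or more with METTL3 K177Q, against 2.13% of all genes, and 1 was at least 1.5-fold lower, against 3.13%. Between the sub-polysome libraries, 0 members were higher, against 4.01% of all genes, and 1 was lower, against 2.94%. KAT2B was the lower gene in both. Its log2 difference, METTL3 K177Q minus METTL3 WT, was -1.81 (SE 0.074) in the sub-polysome and -1.57 (SE 0.084) in the polysome fraction, so its FPKM was 3.51-fold and 2.98-fold lower. Among all genes, 0.33% (36 genes) were at least 1.5-fold lower in both fractions, and 0 of the other genes were as low as KAT2B in both at once. In single fractions, 10 genes were lower than KAT2B in the sub-polysome and 31 in the polysome comparison, so it was the lowest in neither. KAT2B was picked for this ranking because of these values. KAT2B stayed at least 1.5-fold lower in both fractions under every alternative listed in the closing section in which it was computed. In RNA of a whole culture, fewer cells carrying an mRNA and less of it per cell cannot be told apart, and with 1 library per condition neither can the genotype and the culture.

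The other members were closer between genotypes. In the sub-polysome fraction SIRT1 was 1.36-fold lower in METTL3 K177Q cells (log2 -0.44, SE 0.098), CREBBP 1.25-fold (-0.32, SE 0.12) and KAT2A 1.21-fold lower (-0.28, SE 0.067). The remaining sub-polysome differences lay between -0.13 (SIRT7) and 0.11 (SIRT3). In the polysome fraction SIRT6 was 1.20-fold lower (-0.26, SE 0.060), and the rest lay between -0.16 (KAT2A) and 0.16 (EP300). The sirtuins summed to 98.1 FPKM in the METTL3 WT and 95.2 FPKM in the METTL3 K177Q sub-polysome library, and to 113 and 104 FPKM in the polysome libraries. The 4 acetyltransferases summed to 30.8 and 16.9 FPKM, and to 34.6 and 25.7 FPKM, a gap in which KAT2B had the largest part.

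**Figure D3:**
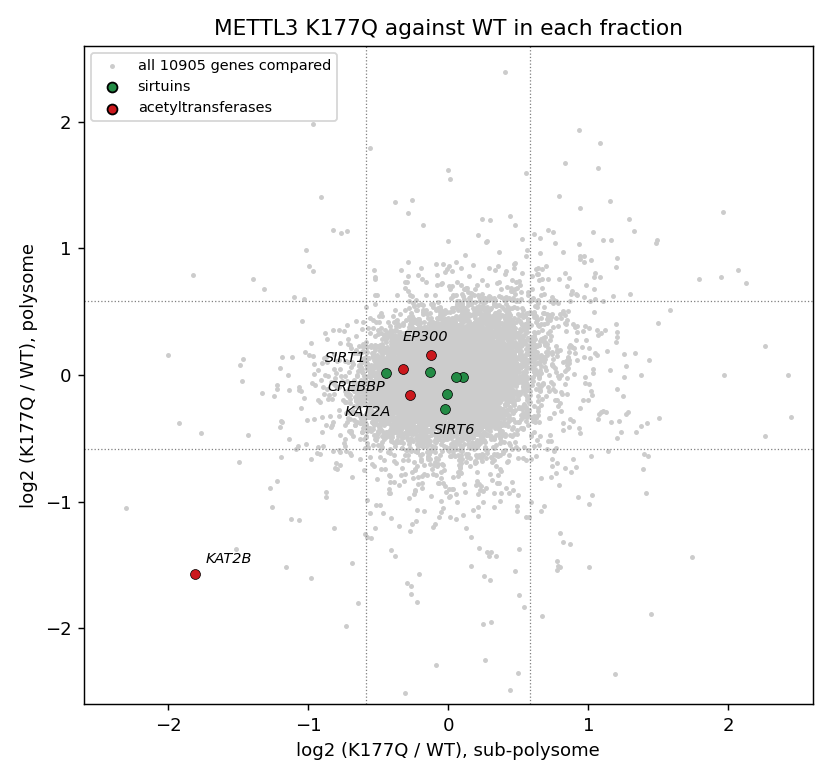
Log2 of METTL3 K177Q over METTL3 WT FPKM, each with 0.1 added, in the sub-polysome (horizontal) and the polysome (vertical) fraction for the 10905 genes compared (grey), the sirtuins (green) and the acetyltransferases (red), with dotted lines at 1.5-fold and 26 genes outside the axes. KAT2B lies alone at -1.81 and -1.57, and the other 9 members lie between the dotted lines in both directions.

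The third comparison set the polysome ratios of the genotypes against each other, as the translation efficiency ratio, METTL3 K177Q minus METTL3 WT on the log2 scale. No member passed 1.5-fold. Of all genes, 4.08% did so upwards and 7.03% downwards. The members' median was 0.14 and that of all genes -0.01, and 6 of 10 members were above 0, against 48.9% of all genes. SIRT1 had the largest ratio, 0.46 (SE 0.14) or 1.38-fold, above 91.9% of all genes, with polysome values of 3.64 and 3.68 FPKM and sub-polysome values of 4.92 and 3.59 FPKM. CREBBP followed with 0.37 (SE 0.16), EP300 with 0.28 (SE 0.18), KAT2B with 0.24 (SE 0.11), SIRT7 with 0.15 (SE 0.098) and KAT2A with 0.12 (SE 0.084). The ratios of SIRT5 (-0.07, SE 0.15), SIRT3 (-0.12, SE 0.12), SIRT2 (-0.14, SE 0.070) and SIRT6 (-0.24, SE 0.081) were below 0. All 4 acetyltransferases were thus above 0, with a median of 0.26, and 2 of 6 sirtuins were, with a median of -0.09. EP300, SIRT7, KAT2A, SIRT3 and SIRT5 were within 2 counting standard errors of 0.

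Coding length moved with this ratio as well. The median of all genes ran from -0.30 in the shortest decile to 0.25 in the longest. Against the median of their deciles, EP300 was 0.03, CREBBP 0.13, KAT2B 0.07, KAT2A -0.05 and SIRT1 0.35, and the members' median was 0.015. The part of length in these ratios was not tested. The scaling of the libraries adds nearly the same amount to every gene, and with each library brought to the same total (TPM), the ratio of all genes had a median of 0.29, SIRT1 reached 0.75 and CREBBP 0.65, both past 1.5-fold, and the lowest member, SIRT6, was at 0.06, so that all 10 members were above 0. Under TPM the split of all genes, higher against lower, turned from 445 and 767 to 2070 and 315 for this ratio, from 437 and 321 to 209 and 1098 in the sub-polysome and from 232 and 341 to 386 and 265 in the polysome fraction. It turned from 3068 and 2085 to 3814 and 1752 for the polysome ratio in METTL3 WT cells and from 3292 and 2321 to 5595 and 1399 in METTL3 K177Q cells. Relative to the median of all genes, SIRT1 was 0.47 and CREBBP 0.38 in the values as given.

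The 4 values of SIRT1 and EP300 were also compared in shape with other genes of a mean level within 2-fold, as the distance between log2 values after each gene was centred on its own mean over the 4 libraries. Of 3530 such genes, FBXO45 was nearest to SIRT1 (distance 0.018), followed by NBN (0.078) and KIF18A (0.082), and FBXO45 had 5.87, 4.29, 4.29 and 4.33 FPKM in the METTL3 WT sub-polysome, METTL3 WT polysome, METTL3 K177Q sub-polysome and METTL3 K177Q polysome libraries. Of 1817 genes near the level of EP300, AKAP11 (0.031), SOS1 (0.032) and RNGTT (0.037) were nearest. For KAT2B, added after its values were seen, the nearest of 3573 genes was WWOX at a distance of 1.11, with 10.4, 8.46, 7.06 and 5.38 FPKM in the same order. This distance grows with the size of the genotype gap for which KAT2B was picked. The lack of a close match over 4 libraries therefore restates that gap and is no further result.

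Related genes placed the members among other acetylation enzymes. SIRT4, the remaining sirtuin and a mitochondrial enzyme, had 2.04 and 3.37 FPKM in METTL3 WT cells and 1.96 and 3.80 FPKM in METTL3 K177Q cells, a translation efficiency ratio of 0.22 (SE 0.32). Of 14 other lysine acetyltransferases 12 passed the minimum, and 0 were past 1.5-fold in this ratio, against 4.08% of all genes upwards and 7.03% downwards. Among these 12, 10 were above 0, against 48.9% of all genes, and the median was 0.27, against -0.01. Their coding lengths, with which the ratio of all genes moved, were not taken into account. The largest ratios were those of CLOCK (0.43), a circadian transcription factor, and KAT7 (0.40), the histone acetyltransferase HBO1. Within this list ESCO2, an acetyltransferase of cohesin, was 1.91-fold lower in the METTL3 K177Q sub-polysome library, with 1.51 and 0.742 FPKM. Of the 11 zinc-dependent histone deacetylases, which need no NAD+, 10 passed the minimum and 0 were past 1.5-fold, with a median of -0.06 and the largest ratios at HDAC3 (-0.41), the deacetylase of the NCoR complex, and HDAC11 (-0.35). All 24 subunits of the SAGA and ATAC complexes that hold KAT2A or KAT2B passed the minimum, and 0 were past 1.5-fold in the ratio or in either fraction. Of all genes, 4.01% were higher and 2.94% lower in the sub-polysome fraction, and 2.13% and 3.13% in the polysome fraction. With shares this small, a count of 0 among 24 genes says little about these subunits. Their median ratio was 0.07, and the extremes were the shared TFIID subunits TAF10 (-0.55) and TAF12 (0.52). In the sub-polysome fraction these 24 genes lay between -0.45 and 0.35 and in the polysome fraction between -0.53 and 0.44, against -1.81 and -1.57 for KAT2B.

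Genes that supply the enzymes' cofactors were listed too. Of 12 genes of NAD+ synthesis and use, 9 passed the minimum, 1 was at least 1.5-fold higher in the ratio, against 4.08% of all genes, and 2 were lower, against 7.03%. Under TPM 2 of these 9 were higher (NADSYN1 and NMNAT2) and 0 lower, so the calls of NMNAT1 and NMRK1 rest on the scaling. NADSYN1, which makes NAD+ by amidation, had 7.02 and 12.1 FPKM in METTL3 WT cells and 5.73 and 15.3 FPKM in METTL3 K177Q cells, a ratio of 0.63 (SE 0.12). NMNAT1, the nuclear NAD+ synthase from NMN, had 2.42 and 4.31 FPKM against 3.35 and 3.74 FPKM, a ratio of -0.65 (SE 0.16). NMRK1, a nicotinamide riboside kinase, had 1.07 and 1.17 FPKM against 1.89 and 1.22 FPKM, a ratio of -0.70 with a counting standard error of 0.38. NAMPT, the rate-limiting enzyme of NAD+ salvage from nicotinamide, was abundant at between 90.7 and 158 FPKM, with a ratio of 0.18. Of 9 regulators of sirtuins and p300 (subunits of AMPK and its kinase STK11 among them), 8 passed the minimum and 0 were past 1.5-fold, with a median of -0.06, and the largest were RPS19BP1 (-0.44), the SIRT1 activator AROS, and CCAR2 (0.33), the SIRT1 inhibitor DBC1. Of 6 genes of acetyl-CoA supply all passed and 0 were past 1.5-fold, with a median of -0.14 and the largest ratios at the citrate carrier SLC25A1 (-0.23) and the acetyl-CoA transporter SLC33A1 (-0.23). The counts of all these related lists moved with the scaling, from 1 higher and 2 lower among 70 genes to 16 higher and 0 lower among 71 under TPM, where 2070 of 11143 genes were higher.

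**Figure D4:**
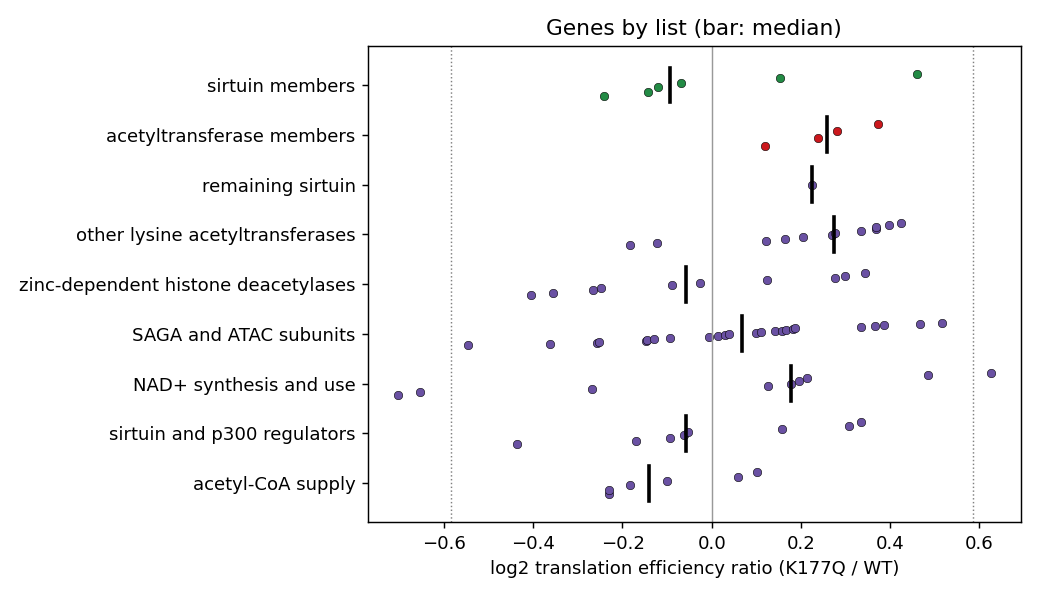
Translation efficiency ratio (log2, K177Q minus WT) for each gene that passed the minimum of 1 FPKM, by list, with a bar at each list's median and dotted lines at 1.5-fold. The 4 acetyltransferase members lie between 0.12 and 0.37, SIRT1 is the highest sirtuin at 0.46, and the 3 genes past a dotted line belong to NAD+ synthesis and use.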

How the data were processed

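MDA-MB-231 polysome profiling gave 4 libraries, grouped by genotype and fraction from their titles. The authors deposited FPKM per gene, and the submitters' processing notes name STAR 2.7, StringTie 2.1.5 and hg38. The annotation and counting options are not given in the sources used here. A further 4 columns, headed as replicate 1 of the same conditions, matched no listed sample and were not used.

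Log2 ratios used FPKM + 0.1 and genes averaging 1 FPKM or more. The limit of 1.5-fold is the one the study used for translation efficiency and for its list of reduced transcripts. Its calls of differential expression used 2-fold and a false discovery rate. With 1 library per group no test was run. The members and lists were chosen with earlier results of these data known. The genes named are the 10 members, METTL3, the genes of each related list past 1.5-fold in the translation efficiency ratio or else the 2 largest, and the 3 nearest patterns to SIRT1 and EP300. The line's markers serve as a check of the cells. ESCO2, NAMPT, NMNAT2, NMNAT3 and WWOX were added after their values were seen. So were the genes next to or overlapping a member (RAB5A, SGO1, RIC8A and EP300-AS1). The counts of related lists under other scalings and the ranking of KAT2B among all genes were likewise added afterwards.

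GENCODE 44 canonical transcripts gave positions and lengths, with a coding length for 94.5% of the genes compared. Depth was approximated as the inverse of the median of FPKM times kilobases between 0.025 and 0.05. Translated coding sequences were aligned globally, with free end gaps and a BLOSUM matrix, in Biopython 1.88. The calculation was tested on simulated data. Python 3.11.15, pandas 2.3.3, numpy 2.4.6 and matplotlib 3.10.9 were used.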

Additional observations from a re-analysis of the deposited data

How the results depend on the processing

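No paired analysis was possible because only 1 column per condition could be matched to a listed sample, and for the same reason no replicate was left out. The depth limits EP300 and CREBBP most. Counts below are of members at least 1.5-fold higher or lower, medians are log2 values of the members, and both keep the order of the report. Small moves, of counts by at most 1.5-fold and of medians by less than 0.1, are otherwise left out. A pseudocount of 1 gave 0 lower in METTL3 WT, and 3 higher with a median of 0.27 in METTL3 K177Q polysome ratios. A minimum mean of 5 FPKM left 6 members, with medians of 0.44 and 0.31 for the polysome ratios and 3 higher in each genotype. The medians were then -0.15 within polysomes and -0.0004 for the translation efficiency ratio. TPM gave 0 lower and a median of 0.34 in METTL3 WT polysome ratios. In METTL3 K177Q polysome ratios it gave 6 higher and a median of 0.87. It also gave 2 lower (KAT2B and SIRT1) and -0.33 within sub-polysomes, and 2 higher and 0.43 for the translation efficiency ratio. Equal totals without ribosomal protein genes gave 0.66 in METTL3 K177Q polysome ratios, 2 lower and -0.32 within sub-polysomes, and 2 higher and 0.37 for the translation efficiency ratio. The medians of all 10908 genes then compared were 0.38, -0.20 and 0.23 in the same order. Of these genes 1018 were lower within sub-polysomes and 1513 higher for the translation efficiency ratio. Size factors gave 3 higher and 0.35 in METTL3 K177Q polysome ratios, where 2769 of 10897 genes were higher and the median of all genes was 0.05. Centring gave medians of 0.060 in METTL3 WT and 0.29 in METTL3 K177Q polysome ratios, with 3 higher and 1 lower in the latter. At 2-fold, the polysome ratios had 0 higher and 0 lower in METTL3 WT and 0 higher in METTL3 K177Q cells. Subtracting the median of the coding-length decile gave 1 higher, 2 lower and a median of -0.12 in METTL3 WT and also 1 higher, 2 lower and -0.12 in METTL3 K177Q polysome ratios, and 0.015 for the translation efficiency ratio. For these counts no share of all genes is given. Rescaling and centring add nearly the same amount to every gene and stricter limits leave fewer genes; for the pseudocount and coding length the cause was not tested. Of 430 values of single members under these alternatives, 139 moved by at least 0.1 on the log2 scale, and 0 that were past 1.5-fold changed sign.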

Other observations

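KAT2B lies between RAB5A, a small GTPase of early endosomes, and SGO1, which protects centromeric cohesion, the nearest genes on either side that passed the minimum. These were chosen after the KAT2B values were seen. RAB5A, 55.3 kb away, had 52.5 (sub-polysome) and 46.2 (polysome) FPKM in METTL3 WT cells, and 40.9 and 43.1 FPKM in METTL3 K177Q cells. SGO1, 15.1 kb away, had 8.05 and 4.09 FPKM in METTL3 WT cells, and 5.32 and 3.68 FPKM in METTL3 K177Q cells. Their log2 differences between genotypes were -0.36 and -0.59 in the sub-polysome and -0.10 and -0.15 in the polysome fraction, against -1.81 and -1.57 for KAT2B. SGO1 was thus itself just past the 1.5-fold limit in the sub-polysome fraction (1.504-fold lower), as were 2.94% of all genes.

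Among related genes under the minimum of 1 FPKM, NMNAT3, a mitochondrial NAD+ synthase chosen after its values were seen, had 0.206 (sub-polysome) and 0.138 (polysome) FPKM in METTL3 WT cells, against 0.786 and 0.479 FPKM with METTL3 K177Q. Its log2 difference between genotypes was 1.53 (SE 0.49) in the sub-polysome and 1.28 (SE 0.60) in the polysome fraction, with as few as 7 fragments in a library. The translation efficiency ratio of NMNAT3 was -0.25 with a counting standard error of 0.78.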
